A study of Homo sapiens with 4 samples.

Results

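The 10 genes described here encode parts of the desmosome, and they were picked by symbol from the 58870 genes listed in each library: the desmosomal cadherins DSG2, DSG3, DSC2 and DSC3, the plakin DSP, the armadillo proteins JUP, PKP1, PKP2 and PKP4, and the tetraspan membrane protein PERP. They were picked with the Dox over control results of these same libraries in view, so their values, and the calls the fit across all genes gave them, are a description and not an independent test. The cells were BJ cells, an established line of human foreskin fibroblasts. In 2 libraries the cells had received 250 nM of an agent that the labels give only as "Dox", and in the other 2 they had received the solvent DMSO (control). The sample titles also call the control cells "YOUNG" and the Dox cells "AGED", so each group carries an age label beside its treatment. The series design places a 24-hour exposure first and 10 days of senescence after it, although the treatment note of the samples can be read in the other order. All groups come from 1 cell line, and nothing in the labels says whether the replicates were separate cultures, so p-values measure the spread between these libraries, which may be technical.

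Desmosomes are adhesive junctions that tie the intermediate filaments of neighbouring cells together. Desmogleins and desmocollins are the cadherins that bind across the gap between cells. Inside the cell, plakoglobin (JUP) and the plakophilins bind the cadherin tails, and desmoplakin (DSP) links them to the filaments. Epidermis and heart muscle depend on these junctions, whereas dermal fibroblasts are not known for them. DSG3 and DSC3 are cadherins of the lower epidermal layers, and DSG3 is the target of autoantibodies in pemphigus vulgaris.

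Estimated (expected) read counts summed to between 42744729 and 47798920 per library. Between 16128 and 16890 genes had at least 10 counts. Of the fibroblast markers, 10 of 10 passed the filter on low counts. The keratinocyte markers KRT5, KRT1 and LGALS7, the T cell marker CD3E and the melanocyte marker SOX10 had 0 counts in all 4 libraries. Summed immune markers reached 26.5 and 28.7 CPM in the Dox libraries, against 6.52 and 6.16 CPM in the control libraries, with CD68 making up most of the sum. Both CD68 and the leukocyte marker PTPRC, with 90 and 83 counts in the Dox libraries, against 9 and 11 in the control libraries, were higher. PTPRC passed the filter on low counts through its Dox counts alone. Summed simple epithelium markers reached 264 and 360 CPM in the Dox libraries, against 221 and 229 CPM in the control libraries, with KRT19 higher (197 CPM in Dox cells and 75.3 CPM in control cells) and KRT8 lower (9.70 and 13.1 CPM). Melanocyte, endothelial and muscle markers summed to at most 4.76 CPM in any library. The muscle sum was 1.71 and 2.07 CPM in the Dox libraries, against 4.58 and 4.44 CPM in the control libraries. All 3 muscle markers that were tested, MYH2, TNNT2 and DES, were called lower, beside 13.8% of all tested genes. TNNT2 passed the filter on low counts through its control counts alone, and DES only with them. Genes with a few counts in the Dox libraries and 0 in both control libraries were more numerous than the reverse over the whole annotation. With at least 1 count in both libraries of one group and 0 in the other group, there were 1711 Dox-only genes (2.91% of listed genes) and 264 control-only genes (0.448%). With at least 10 counts there were 33 Dox-only genes (0.0561%) and 1 control-only gene (0.00170%). Of 43 markers of cell types other than fibroblasts, 10 (23.3%) had a count in both Dox libraries and 0 in both control libraries, and 0 showed the reverse.

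The desmosomal cadherin genes lie beside each other on chromosome 18, and the stretches before their starts differ in base composition. The sequences shown belong to DSG3 and DSC3, which had counts in the Dox libraries alone, and to DSG2, the next gene after DSG3, which had few counts. They are RefSeq sequences on build GRCh38.p14, read 5′ to 3′ on the gene's strand, and they end at the RefSeq start or at the GENCODE 29 start, whichever comes first. Capitals mark CpG dinucleotides. The DSG3 stretch is chr18:31447491-31447740 on the plus strand (250 bases), the DSC3 stretch is chr18:31042816-31042992 on the minus strand (177 bases), and the DSG2 stretch is chr18:31497927-31498042 on the plus strand (116 bases).
DSG3: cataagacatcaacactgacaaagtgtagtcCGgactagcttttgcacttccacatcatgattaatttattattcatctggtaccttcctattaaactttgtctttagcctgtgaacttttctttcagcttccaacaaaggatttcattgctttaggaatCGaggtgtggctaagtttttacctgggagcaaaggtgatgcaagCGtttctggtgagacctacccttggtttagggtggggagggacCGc
DSC3: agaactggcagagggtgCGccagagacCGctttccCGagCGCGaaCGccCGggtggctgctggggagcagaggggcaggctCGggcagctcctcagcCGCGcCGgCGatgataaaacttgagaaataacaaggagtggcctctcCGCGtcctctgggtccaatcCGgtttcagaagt
DSG2: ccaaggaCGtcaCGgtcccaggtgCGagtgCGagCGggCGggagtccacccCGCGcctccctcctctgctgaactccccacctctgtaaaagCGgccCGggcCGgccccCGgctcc

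The DSG3 stretch holds 4 CpG dinucleotides and has 42.8% G or C. The DSC3 stretch holds 15 with 63.3% G or C, and the DSG2 stretch 12 with 73.3%. Of the 10 genes, 9 had RefSeq promoter windows, 12 in all, and PKP2 had none in the table used. Over the 250 bases before each RefSeq start, DSG3 had the lowest share of G and C of the 12, and the other 11 ranged from 59.6% to 78.0% with 12 to 34 CpG dinucleotides. The median over all 35116 windows was 58.0% with 11 CpG dinucleotides.

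4 motifs were searched on both strands of these 250 bases, and neither DSG3 nor DSC3 held any of them. The AP-1 motif TGANTCA is found in 6.57% of all windows and was found once among the 9 genes with a window, in PERP, starting 101 bases before the RefSeq start. The E2-box CACCTG, which SNAI and ZEB factors bind, is found in 17.5% of all windows and was found in DSG2, DSP, 1 of 2 DSC2 windows and 1 of 2 JUP windows. The GC box GGGCGG, found in 42.6% of all windows, had 7 matches before DSP and 5 before PERP. It was also found in DSG2, PKP1, both DSC2 windows, both PKP4 windows and 1 of 2 JUP windows. Some of these GC boxes overlap each other. A loose p53-type pair of CATG cores set 8 bases apart is found in 0.296% of windows and in none of the 12. A match is a run of letters, not a shown binding site.

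DSG3 and DSC3 were counted in Dox cells and in neither control library. DSG3 (chr18:31447795-31478702, GENCODE 29 on GRCh38) had 39 and 45 counts in the Dox libraries, against 0 and 0 in the control libraries. Taking 3 counts over both control libraries as the floor, its level in CPM (counts scaled to the library's size, with TMM factors) was at least 28.2-fold higher in Dox cells. DSC3 (chr18:30990008-31042815) had 18 and 19 counts in the Dox libraries, against 0 and 0 in the control libraries, which is at least 12.4-fold higher on the same floor. The Dox pair agreed closely for both genes, at 0.912 and 0.992 CPM for DSG3 and at 0.421 and 0.419 CPM for DSC3. Per transcript length the levels were low, with 0.17 and 0.19 FPKM for DSG3 and 0.08 and 0.06 FPKM for DSC3 in Dox cells. Fewer cells carrying a transcript and less of it per cell cannot be told apart in bulk RNA.

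Among 16749 tested genes, which include many with far higher counts, 27 (0.161%) had 0 counts in both control libraries and at least 10 in both Dox libraries, and 1 (0.00597%) had the reverse. Among the 33 genes of this kind in the whole annotation, DSG3 ranked 3rd by its Dox counts and DSC3 12th. Both genes passed the filter on low counts through their Dox counts alone, so they had to differ. The 12 summed keratinocyte markers were at 13.5 and 11.8 CPM in the Dox libraries, against 10.5 and 10.5 CPM in the control libraries. KRT10 made up most of these sums. Without KRT10 they were at 1.22 and 1.17 CPM in the Dox libraries, against 0.647 and 0.533 CPM in the control libraries. Of the 12 markers, 3 could be tested and 1 of them, COL17A1, was higher, but it passed the filter through its Dox counts alone. KRT10 and CDH1 were tested and not called, and CDH1 had 9 and 11 counts in the Dox libraries, against 18 and 10 in the control libraries. SFN had 3 and 2 counts in the Dox libraries, against 2 and 3 in the control libraries. Other untested markers of the list were higher in both Dox libraries. IVL had 5 and 7 counts there, against 0 and 0 in the control libraries. KRT14 had 3 and 4, against 0 and 1, and CDH3 had 10 and 10, against 5 and 6. KRT6A had 1 and 0 counts in the Dox libraries, against 0 and 0 in the control libraries. TP63, the master regulator of basal keratinocytes, had 5 and 4 counts in the Dox libraries and 0 in both control libraries. The part of these markers, or of the wider surplus of genes seen only in Dox libraries, in the DSG3 and DSC3 counts was not tested.

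The other desmosomal cadherins stayed at a handful of counts. DSG2 (chr18:31498043-31549008), the desmoglein of simple epithelia and heart, had 9 and 4 counts in the Dox libraries, against 1 and 0 in the control libraries. The ratio of its summed and scaled counts was 13.1 (95% conditional binomial interval 1.96 to 556, counting error only). DSC2 (chr18:31058840-31102522), the most widely expressed desmocollin, had 0 and 1 counts in the Dox libraries and 0 in both control libraries. Summed over the 4 cadherins, the Dox libraries had 66 and 69 counts and the control libraries 1 and 0. DSG3 made up most of the Dox counts in both replicates.

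Along chromosome 18, counts were not shared evenly by the cluster. In gene order DSC3, DSC2, DSC1, DSG1, DSG4, DSG3 and DSG2, the 3 genes in the middle that are not among the 10, the epidermal cadherins DSC1 and DSG1 and the hair desmoglein DSG4, had at most 2 counts in any library. DSC1 had 0 and 1 counts in the Dox libraries, against 0 and 0 in the control libraries. DSG1 had 2 and 0 in the Dox libraries, against 0 and 0 in the control libraries, and DSG4 had 0 and 1, against 0 and 0. So the 2 genes with 10 or more counts are separated by 4 genes at or near 0. Beyond DSG2, TTR, which encodes transthyretin, had 0 counts in all 4 libraries. B4GALT6, a galactosyltransferase gene, had 80 and 91 counts in the Dox libraries, against 33 and 36 in the control libraries. It rose by 1.31 ± 0.20 on the log2 scale (SE, n = 2 each, edgeR adjusted p = 0.00493). That call was lost with limma on log2(TPM + 0.1) and on log2(TPM + 1) (adjusted p = 0.359 and 0.364). The antisense genes DSCAS, DSG1-AS1 and DSG2-AS1 had 0 counts in all 4 libraries.

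**Figure D1:**
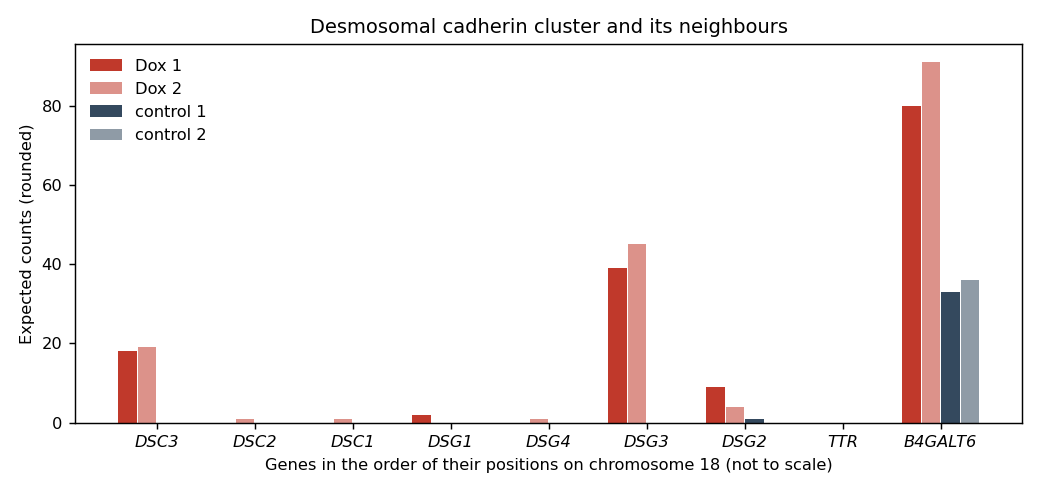
Rounded expected counts (y axis, linear) in each of the 4 libraries for 7 desmosomal cadherin genes and 2 neighbours, in their order on chromosome 18 (x axis, not to scale). DSG3 reaches 39 and 45 counts and DSC3 18 and 19 in the Dox libraries, both are at 0 in the control libraries, and the genes between them have at most 2 counts.

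DSP, the plakin that ties the plaque to intermediate filaments, was abundant in both groups and hardly differed. DSP (chr6:7541575-7586717) had 9522 and 11064 counts in the Dox libraries, against 9797 and 11086 in the control libraries. Its level was 233 ± 15.02 CPM in Dox cells and 236 ± 1.21 CPM in control cells (SD, n = 2 each), and the groups overlapped. The log2 fold change was -0.01 ± 0.08 (SE), and its sign turned under 6 of 15 alternatives. Without Dox replicate 2 it was -0.08 and called lower. DSP was therefore expressed in control cells in which the 4 desmosomal cadherins together had 1 and 0 counts.

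JUP (chr17:41754604-41786931) encodes plakoglobin, which binds the tails of desmosomal and classical cadherins alike. It had 759 and 1038 counts in the Dox libraries, against 495 and 598 in the control libraries. Its level was 20.3 ± 3.63 CPM in Dox cells and 12.3 ± 0.632 CPM in control cells (SD, n = 2 each). Both Dox libraries lay above both control libraries, and the Dox libraries lay further apart than the control libraries. The log2 fold change was 0.72 ± 0.14 (SE), past the threshold in the fit across all genes, but not against a 1.5-fold threshold nor with limma on log2(TPM + 0.1) or log2(TPM + 1). Leaving out Dox replicate 2 gave 0.52, and leaving out Dox replicate 1 gave 0.88. JUP transcripts have 62.3% G or C, the highest of the 10 genes. Across tested genes with a known share of G and C, the log2 difference between Dox replicate 1 and Dox replicate 2 was lower for transcripts rich in both. The Spearman rho was -0.58 over 16717 genes, all from these 2 libraries. With offsets for that trend the JUP log2 fold change was 0.70.

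The plakophilins PKP2 and PKP4 were tested and not called, and PKP1 had too few counts. PKP2 (chr12:32790745-32896840), the plakophilin of heart and simple epithelia, had 35 and 27 counts in the Dox libraries, against 16 and 13 in the control libraries. Both Dox libraries lay above both control libraries, and the log2 fold change was 1.10 ± 0.34 (SE), not past the threshold. It was past it with GC offsets, without the filter on low counts and without Dox replicate 2. PKP1 (chr1:201283452-201332993), the plakophilin of the upper epidermis, had 2 and 4 counts in the Dox libraries, against 2 and 3 in the control libraries. The ratio of its summed and scaled counts was 1.21 (95% conditional binomial interval 0.307 to 5.00), so no difference was detectable at this depth. PKP4 (chr2:158456964-158682879), also called p0071 and found at adherens junctions as well as desmosomes, had 2894 and 3206 counts in the Dox libraries, against 3343 and 3749 in the control libraries. Its level was 69.2 ± 2.12 CPM in Dox cells and 80.03 ± 0.097 CPM in control cells (SD, n = 2 each), and both Dox libraries lay below both control libraries. The log2 fold change was -0.21 ± 0.07 (SE), not past the threshold, but past it with GC offsets and without either Dox replicate, and of the opposite sign in TPM.

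PERP, a membrane protein of the PMP22 family that is needed for desmosomes in stratified epithelia and is known as a p53 target, was the most abundant of the 10 per transcript length. PERP (chr6:138088505-138107511) had 7237 and 7711 counts in the Dox libraries, against 6116 and 6906 in the control libraries. Its level was 169.6 ± 0.538 CPM in Dox cells and 146.9 ± 0.536 CPM in control cells (SD, n = 2 each). The groups did not overlap and the replicates of each group lay close together. The log2 fold change was 0.21 ± 0.07 (SE), not past the threshold, but past it with a filter at 1 CPM and without either Dox replicate.

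**Figure D2:**
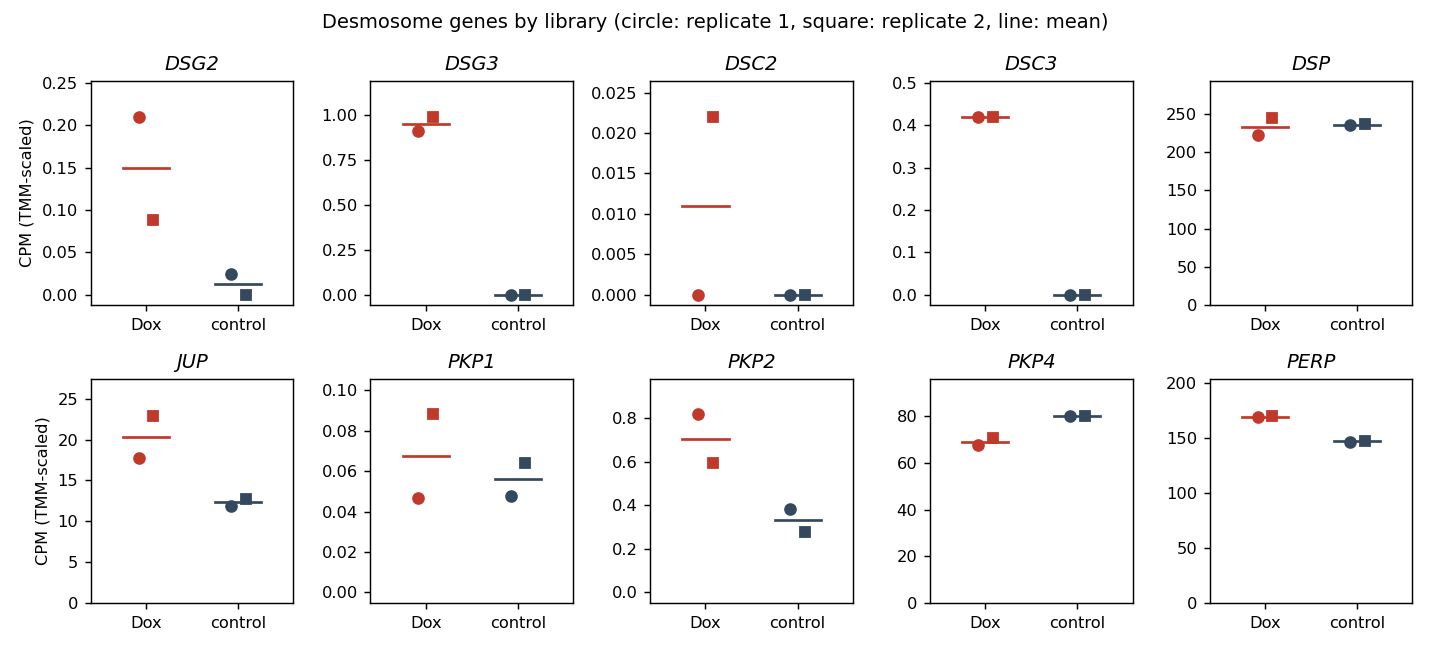
CPM scaled by TMM (y axis, linear, a scale of its own for each gene) of the 10 genes in the 2 Dox and 2 control libraries, with circles for replicate 1, squares for replicate 2 and lines for the group means. DSG3 and DSC3 are at 0 in both control libraries, JUP is higher in both Dox libraries, DSP overlaps and PKP4 is lower in both Dox libraries.

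Over the 10 genes, 7 passed the filter on low counts, and DSG2, DSC2 and PKP1 did not. Of the 7, 3 were called higher by edgeR at an adjusted p under 0.05 (DSG3, DSC3 and JUP), beside 16.5% of all tested genes. 0 were called lower, beside 13.8% of all tested genes, and 30.3% of them were called in either direction. DESeq2 also called 3 higher and 0 lower, and at an unadjusted p under 0.05 edgeR had 5 higher and 1 lower. The choice of the 10 genes used this contrast, so nothing is read from these shares. Without Dox replicate 2 the counts were 5 higher and 2 lower, and without Dox replicate 1 they were 4 higher and 1 lower. In CPM, both Dox libraries lay above both control libraries for 6 genes and below for 1, and for 3 the groups overlapped. Among these were the untested DSG2, which lay above, and the untested DSC2 and PKP1, which overlapped. Of the 7 tested genes, DSG3, DSC3, JUP, PKP2 and PERP lay above, PKP4 lay below and DSP overlapped. DSG3 and DSC3 had to lie above, because they passed the filter through their Dox counts alone. Of all tested genes, 34.6% lay above and 34.5% below, 69.1% in sum.

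The levels per transcript length fell into a high and a low set. In FPKM, PERP came first at 42.22 and 44.35 in Dox cells, against 35.73 and 36.06 in control cells. DSP followed at 24.85 and 28.3 in Dox cells, against 25.41 and 26.21 in control cells. PKP4 was next at 21.55 and 22.99 in Dox cells, against 22.08 and 23.13 in control cells. JUP had 6.19 and 8.64 FPKM in Dox cells, against 3.99 and 4.53 FPKM in control cells. In each group these neighbours in the order did not overlap. The other 6 genes were at or under 0.26 FPKM in every library. PKP2 led them with 0.26 and 0.26 FPKM in Dox cells, against 0.10 and 0.15 FPKM in control cells. In Dox cells it was followed by DSG3, DSC3 and DSG2, the last at 0.04 and 0.02 FPKM, which overlapped with PKP1 at 0.01 and 0.02 FPKM.

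By role, the 10 genes' summed FPKM was made up almost wholly of plaque and membrane proteins without a cadherin. The cadherins took 0.304% and 0.267% of the sum in the Dox libraries, against 0% and 0% in the control libraries. DSP took 26.1% and 27.0% in the Dox libraries, against 29.1% and 29.1% in the control libraries. The armadillo proteins took 29.4% and 30.4% in the Dox libraries, against 29.98% and 30.9% in the control libraries. PERP took 44.3% and 42.3% in the Dox libraries, against 40.9% and 40.0% in the control libraries. DSG3 itself took 0.178% and 0.181% in the Dox libraries.

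**Figure D3:**
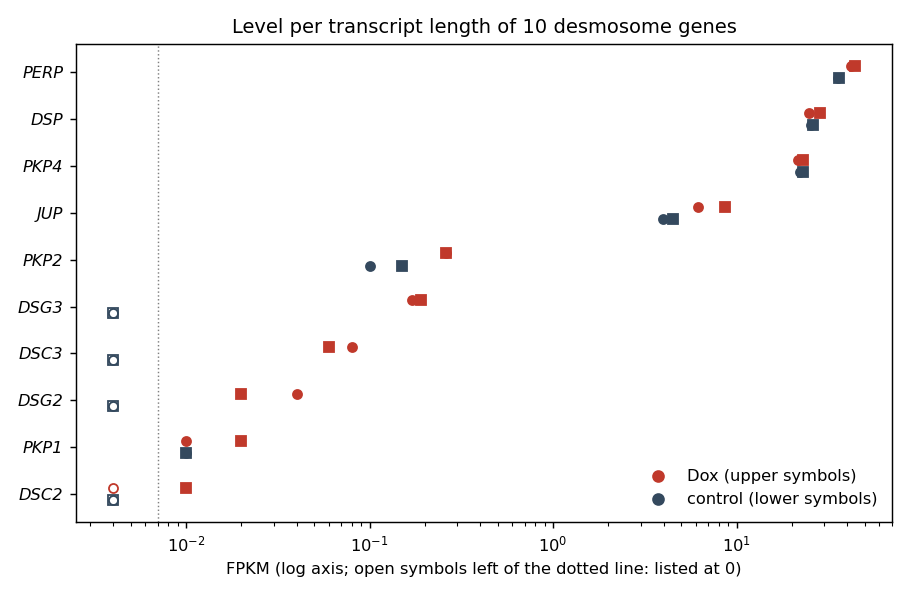
FPKM (x axis, logarithmic) of the 10 genes, ordered by their mean, with Dox libraries as the upper and control libraries as the lower symbols of each row, and open symbols for values listed at 0. PERP, DSP, PKP4 and JUP lie between 3.99 and 44.35 FPKM, and the other 6 genes at or under 0.26 FPKM.

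CPM and the deposited FPKM and TPM did not give the same picture for PKP4 and PERP. PKP4 was lower in both Dox libraries in CPM alone, and PERP was higher in both in CPM and FPKM but not in TPM. In TPM, PKP4 stood at 5.33 and 8.72 in the Dox libraries, against 6.33 and 6.78 in the control libraries, and the groups overlapped. PERP stood at 10.44 and 16.83 TPM in the Dox libraries, against 10.24 and 10.57 TPM in the control libraries, and overlapped too. DSP stood at 6.14 and 10.74 TPM in the Dox libraries, against 7.28 and 7.68 TPM in the control libraries. All 3 genes were higher in Dox replicate 2 than in Dox replicate 1 by a similar factor in TPM, and by much less in CPM. The TPM ratio of Dox replicate 2 over Dox replicate 1 was 1.75 for DSP, 2.14 for JUP, 1.64 for PKP4 and 1.61 for PERP. The CPM ratio was 1.10 for DSP, 1.29 for JUP, 1.04 for PKP4 and 1.00 for PERP. TPM divides by the summed FPKM of a library, so that 1 TPM stood for 4.05 and 2.64 FPKM in the Dox libraries, against 3.49 and 3.41 FPKM in the control libraries. With limma on log2(TPM + 1), 0 of the 10 genes were called higher and 0 lower. On that scale, which understates the change of low genes, the log2 difference was 0.08 for DSG3, 0.03 for DSC3 and 0.56 for JUP.

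**Figure D4:**
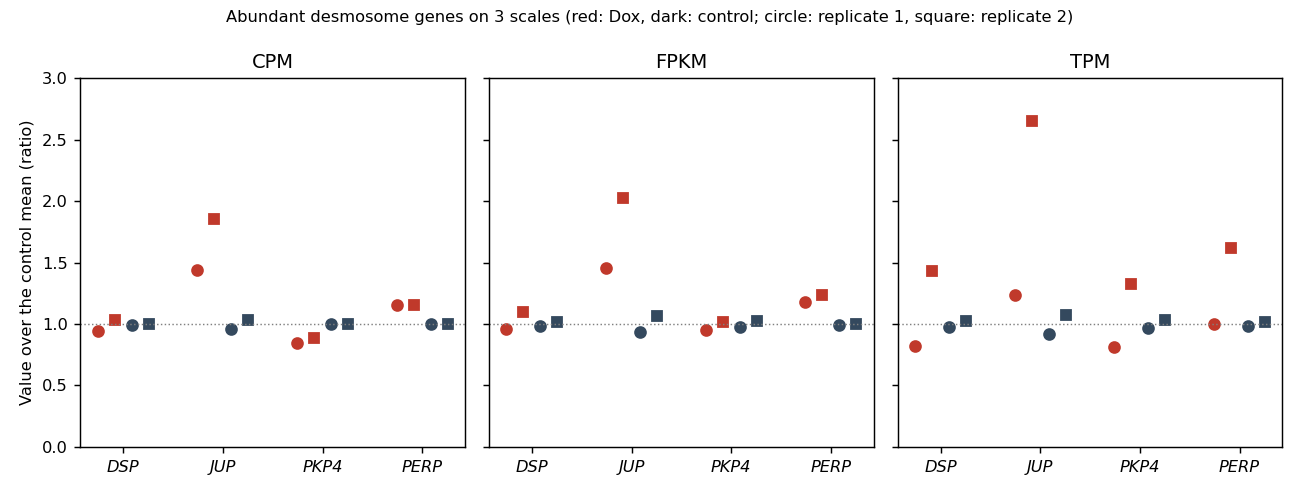
Each library's value over the control mean (y axis, linear ratio) for DSP, JUP, PKP4 and PERP in CPM, FPKM and TPM, with Dox libraries in red left of the control libraries in dark. In TPM, Dox replicate 2 (square) lies far above Dox replicate 1 (circle) for all 4 genes, at 1.61 to 2.14 times its value, and in CPM at 1.00 to 1.29 times.

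PKP4 differed from the other abundant members in its estimated transcript length, a measure that the choice of the genes did not use. The deposited length is a mean over the gene's transcripts, weighted by their estimated abundance. For PKP4 it was 3332 and 3405 bases in the Dox libraries, against 3735 and 3582 bases in the control libraries. Both Dox libraries lay below both control libraries, which was the case for 21.2% of the 13585 tested genes whose length varied, with both above for 16.7%, and no test was run. FPKM divides by that length less the fragment length, and in FPKM the PKP4 groups overlapped, whereas in CPM the Dox libraries were lower. DSP had 9140 and 9198 bases in the Dox libraries, against 9215 and 9044 bases in the control libraries, and JUP had 3061 and 2961 bases, against 3094 and 2951 bases. Both overlapped. PERP was listed at 4198 bases and DSG3 at 5579 bases in every library. For DSC3 the Dox libraries differed, with 5386 and 7583 bases, from 18 and 19 counts.

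Expected counts were whole numbers, within 0.005, in all 4 libraries for 10 of the 10 genes, beside 82.6% of all genes with a count. The library kit's strand is not given in the sources used here, and 3 members overlap antisense genes, whose reads could not be told apart without strand. PKP4-AS1 had 0 and 1 counts in the Dox libraries, against 0 and 1 in the control libraries.

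The genes whose profile over the 4 libraries was most like that of DSG3 were found by Euclidean distance between centred log2 CPM values. CDH10, a neuronal type II cadherin, was nearest at a distance of 0.288, with 42 and 58 counts in the Dox libraries and 0 in both control libraries. PI3, which encodes the epidermal protease inhibitor elafin, followed at 0.382 with 34 and 32 counts in the Dox libraries and 0 in both control libraries. PCDH15, a protocadherin of inner ear hair cells, followed at 0.438 with 29 and 32 counts in the Dox libraries and 0 in both control libraries. DSC3 came 33rd in that order at 1.10. The genes nearest to DSC3 were TSPAN11 at 0.121, NEB at 0.130 and CCDC26 at 0.156. TSPAN11, a tetraspanin gene, had 263 and 301 counts in the Dox libraries, against 26 and 29 in the control libraries. NEB, which encodes the muscle protein nebulin, had 86 and 88 counts in the Dox libraries, against 7 and 8 in the control libraries. CCDC26 had 19 and 17 counts in the Dox libraries and 0 in both control libraries. With zero counts in one group the distance follows the number of Dox counts, and it says nothing of shared control.

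The genes in the lists that follow were called against a background of 16.5% of all tested genes higher and 13.8% lower. The remaining desmosome genes did not pass the test. Of 7 listed, 2 had enough counts. PKP3, the third classical plakophilin, had 13 and 14 counts in the Dox libraries, against 18 and 22 in the control libraries. PPL, the plakin periplakin of the cornified envelope, had 68 and 127 counts in the Dox libraries, against 130 and 161 in the control libraries. edgeR called 0 higher and 0 lower, also at an unadjusted p under 0.05, and DESeq2 called 0. Without Dox replicate 2, 1 of them was called lower. CDSN and EVPL, genes of the cornified layer, had at most 1 count in any library.

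Among 22 other cadherins, 16 were tested, 2 rose and 6 fell, with a median log2 fold change of -0.10 beside -0.0023 over all tested genes. CDH11, the fibroblast cadherin, had 16770 and 19098 counts in the Dox libraries, against 28165 and 32067 in the control libraries, and fell by 0.74 ± 0.07 on the log2 scale (SE, n = 2 each, edgeR adjusted p = 0.00113). DCHS1, a large protocadherin-like receptor, had 1133 and 1433 counts in the Dox libraries, against 2486 and 2661 in the control libraries, and fell by 1.00 ± 0.10 (adjusted p = 0.00114). The other 4 that fell were CDH2 (N-cadherin), CDH13, FAT3 and FAT4. CDH10 was at least 33.5-fold higher on the floor of 3 counts, and, like DSG3, passed the filter through its Dox counts alone, so it had to differ. CDH18 had 31 and 29 counts in the Dox libraries, against 14 and 13 in the control libraries, and rose by 1.15 ± 0.30 (adjusted p = 0.0319). That call was lost with DESeq2 (adjusted p = 0.227) and against a 1.5-fold threshold (adjusted p = 0.202). It was also lost with limma on log2(TPM + 0.1) and log2(TPM + 1) (adjusted p = 0.474 and 0.655). Leaving out Dox replicate 1, control replicate 1 or control replicate 2 lost it too, at log2 fold changes of 1.05, 1.28 and 1.01. CDH1 (E-cadherin), with 9 and 11 counts in the Dox libraries, against 18 and 10 in the control libraries, did not pass. Of this list 4 were called higher without Dox replicate 2 and 1 without control replicate 1.

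JUP's relatives at adherens junctions went both ways. Of 14 listed catenins, nectins and partners, 13 were tested, 4 rose and 2 fell, with a median log2 fold change of 0.23. CTNNA3, the alpha-catenin of heart and testis, had 22 and 31 counts in the Dox libraries and 0 in both control libraries, at least 17.8-fold higher. CTNNA3 and CTNNA2, with 10 and 21 counts in the Dox libraries and 0 in both control libraries, passed the filter through their Dox counts alone, so these 2 of the 4 had to differ. CTNNAL1 rose by 0.47 ± 0.07 (SE, n = 2 each, adjusted p = 0.00547), and CTNND1 also rose. CTNNA1, alpha-catenin, had 13516 and 15851 counts in the Dox libraries, against 18486 and 20744 in the control libraries, and fell by 0.41 (adjusted p = 0.0117). CTNNB1, beta-catenin and the nearest relative of plakoglobin, had 11916 and 12678 counts in the Dox libraries, against 14187 and 15766 in the control libraries, and fell by 0.28 (adjusted p = 0.0282). Without control replicate 1 or control replicate 2, 2 of the list were called higher and 0 lower in each case, and without Dox replicate 1, 7 were higher and 3 lower. CTNNAL1, CTNNA1 and CTNNB1 were the named genes lost there, at adjusted p values of 0.0889 to 0.368, and over all alternatives their adjusted p reached 1.00.

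The claudins CLDN11 and CLDN1 and the adhesion molecule gene F11R rose among the tight junction genes. Of 18 tight junction genes, 13 were tested, 4 rose and 1 fell. CLDN11 had 614 and 624 counts in the Dox libraries, against 37 and 51 in the control libraries, and rose by 3.82 ± 0.15 on the log2 scale (SE, n = 2 each, adjusted p = 7.02e-05). CLDN1, the claudin of the epidermal barrier, had 1037 and 803 counts in the Dox libraries, against 55 and 65 in the control libraries, and rose by 3.95 ± 0.20 (adjusted p = 0.000121). F11R, which encodes junctional adhesion molecule A, and CLDN12 also rose. OCLN, occludin, had 127 and 136 counts in the Dox libraries, against 195 and 189 in the control libraries, and fell by 0.54 (adjusted p = 0.0405). OCLN lost its call with DESeq2, without control replicate 1 and without control replicate 2 (adjusted p = 0.126, 0.311 and 0.117, range over all alternatives 0.00165 to 1.00). Without Dox replicate 1, 4 tight junction genes were called lower, and without Dox replicate 2, 2.

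Of 8 gap junction genes, 5 were tested, 3 rose and 1 fell. GJC1, connexin 45, had 3538 and 3417 counts in the Dox libraries, against 1965 and 2059 in the control libraries, and rose by 0.80 (adjusted p = 0.00123). PANX1, a pannexin channel, had 1710 and 1830 counts in the Dox libraries, against 1075 and 1235 in the control libraries, and rose by 0.62 (adjusted p = 0.00202). GJA3 was the other gene that rose. GJA1, connexin 43, had 25764 and 24616 counts in the Dox libraries, against 35315 and 39239 in the control libraries, and fell by 0.56 (adjusted p = 0.0041). 

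Hemidesmosomes, which anchor the same filaments to the basement membrane, had 9 listed genes, all tested, of which 5 rose and 2 fell, beside 16.5% and 13.8% of all tested genes, with a median log2 fold change of 0.82. DST, which encodes the plakin dystonin, had 90778 and 85755 counts in the Dox libraries, against 43245 and 47788 in the control libraries. It rose by 0.97 ± 0.08 (SE, n = 2 each, adjusted p = 0.000609). These counts are per gene, so whether a hemidesmosomal form of dystonin rose was not tested. The laminin genes LAMA3 and LAMB3 and the collagen gene COL17A1 also rose. COL17A1 had 16 and 15 counts in the Dox libraries, against 2 and 5 in the control libraries. It passed the filter on low counts through its Dox counts alone. ITGB4, the beta subunit of the hemidesmosome integrin, had 280 and 387 counts in the Dox libraries, against 706 and 698 in the control libraries, and fell by 1.07 (adjusted p = 0.00354). Its partner ITGA6 had 2487 and 2863 counts in the Dox libraries, against 3442 and 3737 in the control libraries, and fell by 0.42 (adjusted p = 0.00968). Without control replicate 1 or control replicate 2, 1 gene of the list was called lower, and ITGA6 was the one lost (adjusted p = 0.146 and 0.110, range over all alternatives 1.98e-25 to 1.00).

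The intermediate filament genes, whose products DSP binds, were split. Of 13 listed, 10 were tested, 3 rose and 3 fell, with a median log2 fold change of -0.01. KRT17 had 870 and 1156 counts in the Dox libraries, against 365 and 363 in the control libraries, and rose by 1.48 (adjusted p = 0.000883). KRT19 had 7116 and 10363 counts in the Dox libraries, against 3090 and 3590 in the control libraries, and rose by 1.39 (adjusted p = 0.00138). VIM, the vimentin filament of fibroblasts, rose too. KRT7 had 1920 and 2913 counts in the Dox libraries, against 5794 and 6770 in the control libraries, and fell by 1.38 (adjusted p = 0.00196). DES, the desmin of muscle, had 5 and 14 counts in the Dox libraries, against 56 and 48 in the control libraries, and fell by 2.44 (adjusted p = 0.00782). DES passed the filter on low counts only with its control counts. KRT8 also fell. The epidermal keratins KRT5 and KRT1 were at 0 in all 4 libraries, and KRT14 had 3 and 4 counts in the Dox libraries, against 0 and 1 in the control libraries. Without Dox replicate 2, 5 of the list were called lower.

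Of 16 transcription factors with a known part in epithelial or mesenchymal gene expression, 10 were tested, 1 rose and 3 fell, with a median log2 fold change of -0.07. EHF, an epithelial ETS factor, had 39 and 41 counts in the Dox libraries, against 1 and 0 in the control libraries, a ratio of summed and scaled counts of 80.4 (95% conditional binomial interval 14.0 to 3217). Like DSG3, EHF passed the filter on low counts through its Dox counts alone, so it had to differ. KLF5 had 1200 and 1189 counts in the Dox libraries, against 1730 and 1902 in the control libraries, and fell by 0.60 (adjusted p = 0.00299). TWIST1, a mesenchymal factor, had 430 and 464 counts in the Dox libraries, against 604 and 720 in the control libraries, and fell by 0.56 (adjusted p = 0.00696). SNAI2 was the other factor that fell. TWIST1 was lost without control replicate 2 (adjusted p = 0.0974, range over all alternatives 5.36e-11 to 1.00), when 1 of the list was called lower, and without Dox replicate 1, 4 were called higher. GRHL2, an epithelial factor, had 3 and 4 counts in the Dox libraries and 0 in both control libraries, and OVOL1 and OVOL2 were at 0 in all 4 libraries.

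PERP's relatives went opposite ways. Of 5 tetraspan genes of the PMP22 and EMP type, 2 rose and 2 fell. PMP22 had 1818 and 1916 counts in the Dox libraries, against 3973 and 4456 in the control libraries, and fell by 1.17 (adjusted p = 0.000182). EMP2 had 920 and 911 counts in the Dox libraries, against 1759 and 2049 in the control libraries, and fell by 1.05 (adjusted p = 0.000458). EMP1 had 10138 and 9804 counts in the Dox libraries, against 7416 and 8176 in the control libraries, and rose by 0.36 (adjusted p = 0.0174). EMP3 rose by 0.33 (adjusted p = 0.0229). Without control replicate 1 or control replicate 2, 0 of them were called higher, with adjusted p values of 0.193 to 0.376 for EMP1 and EMP3, which reached 1.00 over all alternatives.

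Of 14 kinases, proteases and trafficking genes listed for their links to desmosomes, all were tested, 8 rose and 0 fell, beside 16.5% and 13.8% of all tested genes, with a median log2 fold change of 0.36. EGFR had 9627 and 9613 counts in the Dox libraries, against 5101 and 5593 in the control libraries, and rose by 0.86 ± 0.07 (SE, n = 2 each, adjusted p = 0.000697). PRKCA, the protein kinase C isoform that weakens desmosomal adhesion, had 4039 and 4197 counts in the Dox libraries, against 2427 and 2728 in the control libraries, and rose by 0.68 (adjusted p = 0.00114). FURIN, which cleaves cadherin precursors, ADAM9, ADAM15, GSK3B, AKAP9 and the calcium pump gene ATP2A2 also rose. For falls, DESeq2 called 0 and 1 gene had an unadjusted p under 0.05 with edgeR. Without control replicate 1 or control replicate 2, 5 rose, and 2 fell without Dox replicate 1 and 3 without Dox replicate 2.

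**Figure D5:**
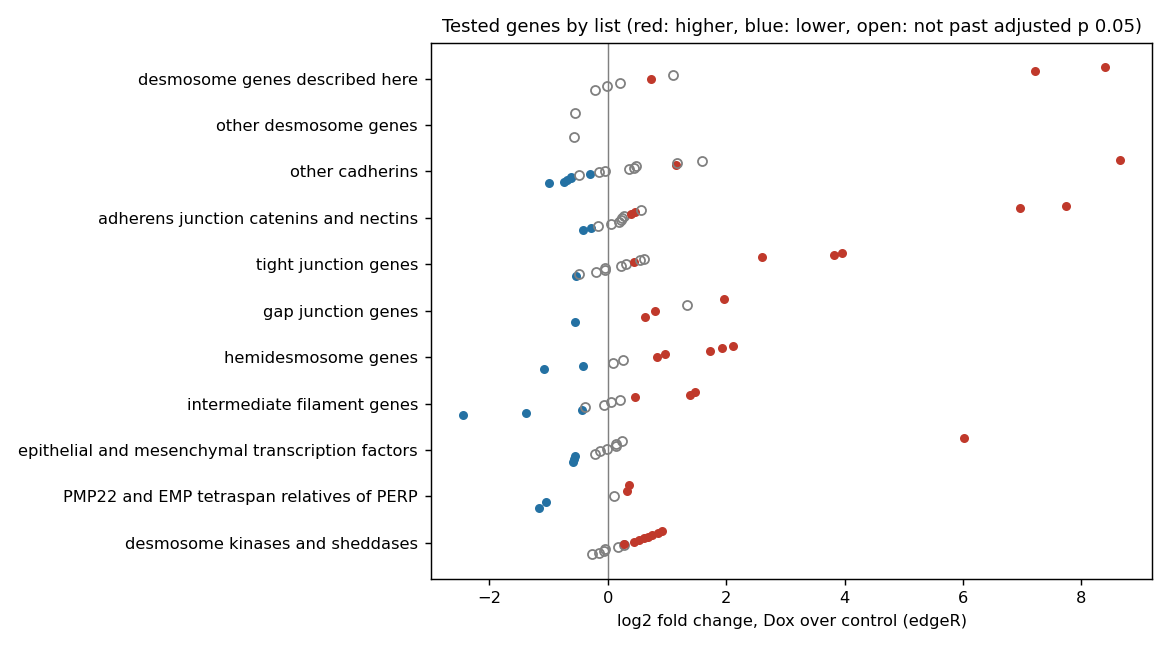
edgeR log2 fold change, Dox over control (x axis), of each tested gene in the set described here and in the 10 lists (rows), in red where higher, blue where lower and open where the adjusted p was not under 0.05. DSG3 and DSC3 lie far to the right of the plaque genes, with fitted values that depend on the prior count because the control libraries hold 0 counts, and CLDN11, CLDN1 and EHF are the other values above 3 whose control libraries were not all at 0.

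Over the 126 distinct genes of the 10 lists, 97 were tested, 32 rose and 20 fell, beside 16.5% and 13.8% of all tested genes, and the median log2 fold change was 0.22 beside -0.0023 over all tested genes. With limma on log2(TPM + 1), 10 of them were called higher and 1 lower. Of those 10 higher, 4 were in the tight junction list. Named genes that lost their call on that scale included CDH11, DCHS1, DST, ITGB4, KRT7, KLF5, PMP22, EMP2, EGFR and PRKCA.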

How the data were processed

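Total RNA of BJ fibroblasts was sequenced in 2 Dox and 2 control libraries. The submitters' processing notes name cutadapt, STAR, Picard, RSEM and build hg38, with versions and annotation not given in the sources used here. The deposited expected counts, TPM and FPKM are so named per the file headers: RSEM's fractional read estimates, and 2 scalings by transcript length, of which TPM also has a fixed total. Transcript lengths are also deposited.

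Expected counts were rounded, kept by filterByExpr (minimum count 10, minimum total 15), given TMM factors and fitted by edgeR (4.0.16) with its quasi-likelihood test, with group as the only term and Benjamini-Hochberg adjustment over 16749 genes at a threshold of 0.05. The standard error is the log2 fold change over the square root of the F statistic. Bounds use a floor of 3 counts. The test was first checked on simulated counts. Software was limma 3.58.1 and DESeq2 1.42.0 under R 4.3.3, and Python 3.11.15. Of the gene identifiers, 99.5% matched GENCODE 29 (GRCh38), which gave 1-based coordinates. Promoter sequences are RefSeq's.

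The 10 genes and the lists were chosen with earlier results of these data known. Named genes were the 10, up to 2 per list and direction with the smallest adjusted p, the 3 nearest profiles each of DSG3 and DSC3, and 5 neighbours on chromosome 18. All further names were picked with values in view. The values of 1 gene that this rule names are not reported here. Alternatives were other scalings, filters, tests and GC offsets, a replicate block, and leaving out each library.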

Additional observations from a re-analysis of the deposited data

How the results depend on the processing

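Of 102 alternative values of the 7 tested desmosome genes, 74 kept their direction and side of the threshold, 6 lost a call, 14 gained one and 8 changed sign. Over all 44 tested named genes, 535 of 650 kept both. Over all genes (2764 higher, 2309 lower), limma on log2(TPM + 1) called 596 higher and 198 lower, limma on log2(TPM + 0.1) 637 and 198, a test against a 1.5-fold threshold 787 and 480, GC offsets 3800 and 3575, and the replicate block with GC offsets 4158 and 4013. For the desmosome genes (3 higher, 0 lower), the counts higher were 5 without the filter on low counts, 0 with log2(TPM + 1), 1 with log2(TPM + 0.1) and 5 with the replicate block and GC offsets, and 1 was lower with GC offsets, with or without the block. For the lists (32 higher, 20 lower), log2(TPM + 1) gave 10 and 1, log2(TPM + 0.1) gave 11 and 1, and the 1.5-fold threshold gave 13 and 6. A filter at 1 CPM left DSG3, DSC3 and PKP2 untested. The cause was not tested, beyond what the TPM ratios of the Dox libraries show.

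DSP, at -0.01, turned to 0.011 with the 1 CPM filter, 0.11 with log2(TPM + 1), 0.12 with log2(TPM + 0.1), 0.0054 with GC offsets, 0.0028 with the replicate block and GC offsets, and ran from -0.083 without Dox replicate 2 to 0.037 without Dox replicate 1. PKP4, at -0.21, turned to 0.055 with log2(TPM + 1) and 0.057 with log2(TPM + 0.1). The median log2 fold change of all genes moved by over 0.1 with log2(TPM + 0.1) and without the filter.

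Leaving out each library in turn gave 1368 to 4654 genes higher and 1000 to 5017 lower over all genes, 3 to 5 higher and 0 to 2 lower among the desmosome genes, and 20 to 46 higher and 11 to 30 lower in the lists. A lone sample is then assumed to vary like the other group. The replicate numbers share only a number: same-numbered deviations had a Pearson correlation of 0.04 over 16749 genes. With the replicate block 2972 genes were higher and 2511 lower, 4 and 0 of the desmosome genes (PKP2 the one gained), and CTNNB1 lost its call (adjusted p = 0.0549). Counts under about 10 per library, as for DSG2, DSC2 and PKP1, limit what can be told of those genes.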
